A study of Mus musculus with 21 samples.

Results

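Removal of cysteine from the diet of mice that lack cystathionine γ-lyase was examined in liver, by setting the 3 libraries titled cse_noCys (replicates 1, 3 and 4), called KO noCys here, against the 4 titled cse_CTR (replicates 1 to 4), called KO CTR. These are 7 of the 21 liver libraries of the series, and all genes with enough counts to be tested, 14370 in number, were described. Both groups carried the same inborn knockout of *Cse*, which is the study's name for *Cth*, on a mixed 129/C57BL/6 background, so the enzyme was missing from every tissue and not from the liver alone. The animals were male, at least 9 weeks old and calorie restricted. They ate a restricted control diet for 3 days and then, for 2 days, either the control diet again (CTR) or a version of it without cysteine (noCys), in which the other amino acids were raised in proportion. For comparison, KO mice without dietary tryptophan (KO noTrp, n = 5) and mice labelled WT with the control diet (WT CTR, n = 3) or without cysteine (WT noCys, n = 4) were used. WT libraries without dietary tryptophan (WT noTrp, replicates 1 and 2) entered the shared fit and the range of *Cth* given below. Since heterozygous animals served for comparison in the study's own description, WT is used as a label only.

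Cystathionine γ-lyase performs the last step of transsulfuration, the route by which liver passes the sulfur of methionine to cysteine, and an animal without it depends on cysteine in food. Cysteine goes into protein, glutathione, taurine and coenzyme A. A shortage of an amino acid is generally sensed by the kinase GCN2 through uncharged tRNA, which slows translation and favours the transcription factor ATF4, the centre of the integrated stress response (ISR). A shortage of thiols frees the transcription factor NRF2, which drives the oxidative stress response (OSR), and the SREBP factors set the transcription of sterol and fatty acid enzymes.

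The 7 libraries held 8889951 to 27230852 counts. Levels below are TMM-scaled CPM, a gene's counts relative to the library's scaled total, listed in replicate order with KO CTR before KO noCys unless stated. Many log2 fold changes are given with a standard error (SE), and a gene was called when the two-sided quasi-likelihood test of edgeR gave an adjusted p under 0.05. The SE is the size of the log2 fold change divided by the square root of that test's F statistic. The titles call the replicates biological without naming animals, so p-values measure spread between libraries. That spread was estimated in 1 model over all 21 libraries and 6 groups, and not from these 7 alone. The knocked-out gene itself, *Cth* (ENSMUSG00000028179, chromosome 3, 157894248 to 157925077, GRCm38), was at 14.6, 10.5, 11.7 and 15.0 CPM in KO CTR against 8.12, 6.34 and 7.33 in KO noCys. All 12 KO libraries of the series lay between 6.34 and 15.0 CPM and all 9 WT libraries between 108 and 452, and within KO its difference by diet was not called (log2 fold change -0.84, SE 0.33, adjusted p = 0.0770). It was called with DESeq2 (adjusted p = 0.0317), with the compared groups alone (adjusted p = 0.0105) and with no filter (adjusted p = 0.0446).

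Cysteine removal changed a broad part of the liver transcriptome of KO mice. Of the 14370 genes, 2906 were called (20.2%), 1528 of them higher (10.6%) and 1378 lower (9.59%) in KO noCys. Most changes were modest, with a median size of 0.61 among the genes that rose and 0.72 among those that fell, and 308 rose (2.14%) and 412 fell (2.87%) more than 2-fold. In 1356 of the called rises and 1227 of the called falls, every KO noCys library lay beyond every KO CTR library, against 15.4% (upward) and 13.2% (downward) of all genes tested, 28.6% in both directions, that were separated in this way. Genes with more counts were called more often, from 8.63% of the 3594 genes of lowest abundance to 32.1% of the 3591 of highest abundance. Scaling by library totals alone moved the median of all genes from 0.00 to 0.13 and the split of the calls to 2380 higher and 848 lower, so all changes are given relative to the TMM scaling. KO noCys replicate 3 stood farthest from the controls, with a median of 0.70 over the genes called higher, against 0.50 and 0.59 in replicates 1 and 4, and of -0.80 over those called lower, against -0.60 and -0.67. Without it, 721 genes were called higher and 658 lower. These included 715 of the 1528 rises and 645 of the 1378 falls above. Of the 1528 rises 1517 kept their sign, and of the 1378 falls 1377, in a fit that shares all other libraries with the first. Leaving out KO noCys replicate 4 gave 1057 higher and 916 lower. In both directions together, 2378 genes were called with the compared groups alone, 3168 by DESeq2 and 4195 with limma-voom.

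**Figure D1:**
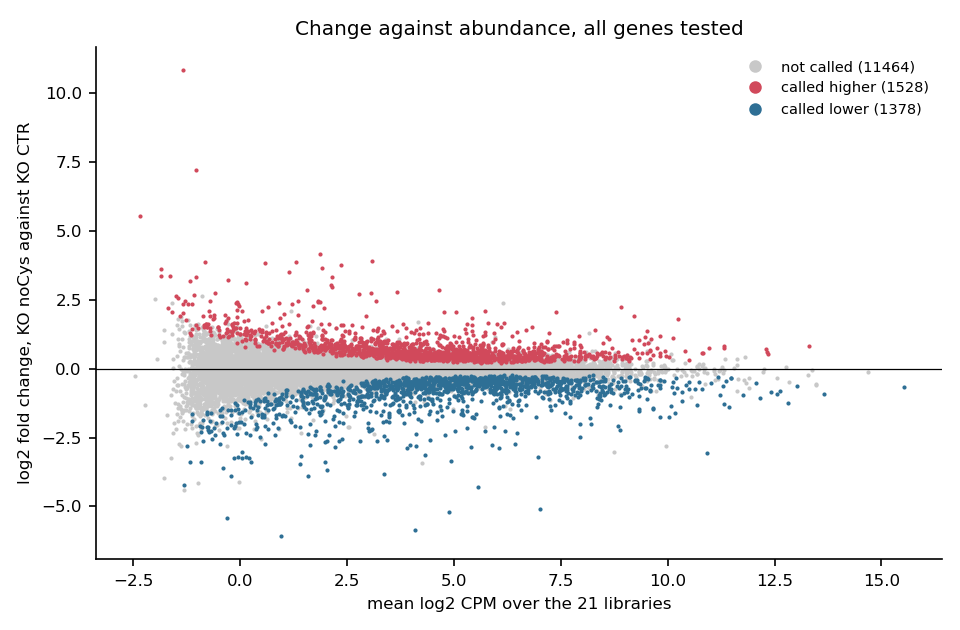
Log2 fold change of KO noCys against KO CTR (vertical axis) against mean log2 CPM over the 21 libraries (horizontal axis), 1 point per gene, with genes called higher in red, lower in blue and not called in grey. Called genes lie on both sides of 0 at every abundance, 1528 above and 1378 below.

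Genes of amino acid stress, thiol defence and sterol synthesis are described first, and other groups after them. Each group is described by its count of calls, to be read against the shares of all genes given above, and by its median log2 fold change, to be read against 0.00 over all genes.

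**Figure D2:**
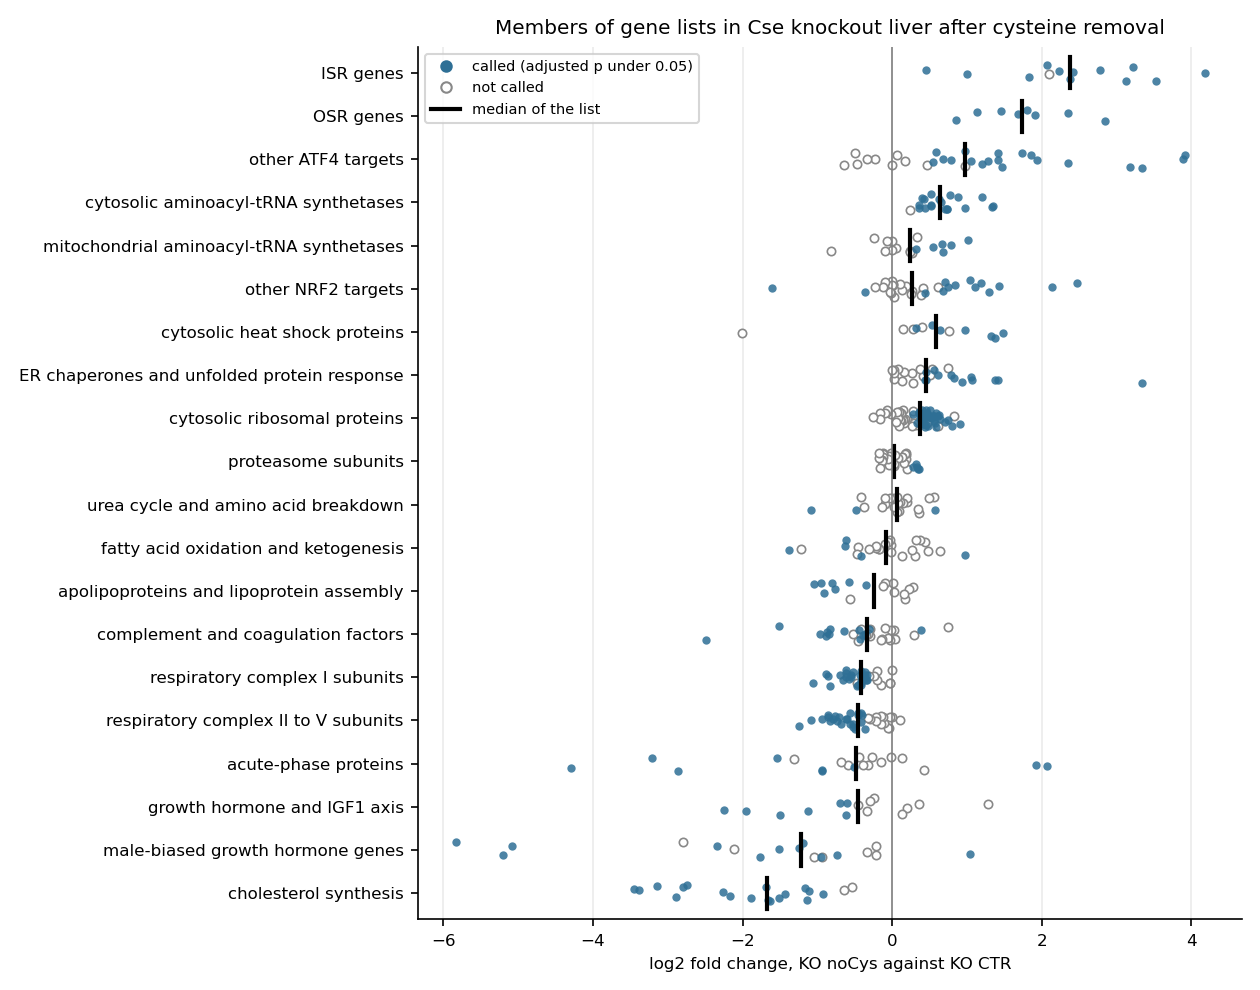
Log2 fold change of KO noCys against KO CTR (horizontal axis) for each tested member of 20 gene lists (rows), with called genes filled, others open, and the median of each list as a black bar. The medians run from -1.67 for cholesterol synthesis to 2.38 for the ISR genes.

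The ISR was the group with the highest median. In KO noCys replicates 1, 3 and 4 the list stood at a median of 1.0, 3.05 and 2.75 from the KO CTR mean. The OSR list stood at 1.9, 1.61 and 1.73, above the ISR list in replicate 1. Of the 13 genes assigned to it by the study, 12 rose and none fell (10 without KO noCys replicate 3), with a median of 2.38. The study chose them on liver data of which these libraries are a part, and their direction is not independent evidence. They cover amino acid synthesis, one-carbon metabolism, amino acid transport and stress factors. *Psat1*, an enzyme of serine synthesis (ENSMUSG00000024640, chromosome 19, 15904678 to 15947337), was at 1.07, 5.96, 1.89 and 2.01 CPM in KO CTR against 47.5, 65.5 and 49.0 in KO noCys (log2 fold change 4.18, SE 0.38, adjusted p = 4.84e-07). *Asns*, asparagine synthetase (ENSMUSG00000029752, chromosome 6, 7675169 to 7693254), was at 14.3, 31.2, 17.5 and 29.0 CPM against 146, 181 and 147 (log2 fold change 2.78, SE 0.34, adjusted p = 1.47e-05). For both genes the 3 KO noCys libraries stood close together and well above all 4 controls. The folate enzyme *Mthfd2* was at 1.21, 3.43, 1.65 and 1.55 CPM in KO CTR against 6.77, 36.6 and 27.7 in KO noCys (log2 fold change 3.53, SE 0.42, adjusted p = 1.19e-05), and the proline enzyme *Pycr1* was at 0.642, 0.250, 0.158 and 0.457 against 1.80, 4.43 and 3.92 (log2 fold change 3.23, SE 0.37, adjusted p = 8.18e-06). In both, KO noCys replicate 1 was the lowest of its group and still above every control. The same replicate was lowest for the transporters *Slc7a1*, which carries cationic amino acids (log2 fold change 3.13), *Slc1a4*, which carries neutral ones (2.38), and *Slc3a2*, the heavy chain shared by several exchangers (1.83). For *Slc1a4* the groups overlapped, with 1.80 CPM in that replicate and 2.07 in KO CTR replicate 2.

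Among the stress factors of the same list, *Atf5*, a transcription factor related to ATF4 (ENSMUSG00000038539, chromosome 7, 44812256 to 44816658), was at 320.4, 489.8, 312 and 353 CPM in KO CTR against 1239, 2165 and 1794 in KO noCys (log2 fold change 2.23, SE 0.20, adjusted p = 4.56e-07). *Trib3*, a pseudokinase that restrains this pathway, was at 20.9, 30.3, 39.3 and 30.2 CPM against 51.9, 226 and 101 (log2 fold change 2.07, SE 0.39, adjusted p = 0.00101), and *Gdf15*, a secreted stress signal that lowers appetite, at 2.0, 3.32, 1.34 and 3.38 against 3.61, 19.5 and 17.1 (log2 fold change 2.42, SE 0.55, adjusted p = 0.00392). All 3 genes were separated by diet, with replicate 1 again the lowest of KO noCys. *Ddit3*, which encodes CHOP (1.0, adjusted p = 0.00722), and *Atf6*, an endoplasmic reticulum (ER) stress sensor (0.46, adjusted p = 0.0107), rose less, and both missed the threshold when KO noCys replicate 3 was left out (adjusted p = 0.0855 and 0.0961). *Ddit3* overlaps exons of *Mars*, and reads of the pair may not be separable. The list's member without a call was the hormone *Fgf21*, at 3.78, 19.4, 0.787 and 0.823 CPM in KO CTR against 6.88, 43.3 and 34.8 in KO noCys (log2 fold change 2.1, SE 0.74, adjusted p = 0.0506). The groups overlapped because KO CTR replicate 2 was high, and without that library the fold change was 3.94 (adjusted p = 0.000814). Without KO noCys replicate 1 it was 2.55 (adjusted p = 0.0223). The gene also passed the threshold with library totals alone (2.24, adjusted p = 0.0373), with limma-voom (3.69, adjusted p = 0.00141) and with no filter (2.08, adjusted p = 0.0201). It was called in 2 of the 7 fits without 1 library, and was at 1.68 (adjusted p = 0.225) when KO noCys replicate 3 was left out and at 1.95 (adjusted p = 0.128) for replicate 4.

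The changes reached further ATF4 targets and the enzymes that charge tRNA. Of 29 other tested ATF4 targets 19 rose and none fell, with a median of 0.98. *Pck2*, the mitochondrial form of phosphoenolpyruvate carboxykinase (ENSMUSG00000040618, chromosome 14, 55540266 to 55551242), was at 3.92, 4.50, 4.25 and 3.84 CPM in KO CTR against 46.5, 89.3 and 52.7 in KO noCys, and *Eif4ebp1*, a brake on translation initiation, at 82.9, 85.9, 94.3 and 102 against 148, 165 and 157. Both were separated by diet, *Pck2* rising 15.2-fold (log2 fold change 3.92, SE 0.23, adjusted p = 2.49e-09) and *Eif4ebp1* 1.72-fold (log2 fold change 0.78, SE 0.10, adjusted p = 1.4e-05). *Atf4* mRNA itself was not called (0.07, adjusted p = 0.835). It was picked after its value was seen, and ATF4 is known to be controlled largely in translation. Of 20 cytosolic aminoacyl-tRNA synthetases 19 rose, with a median of 0.64. *Gars*, for glycine, was at 45.9, 54.2, 47.9 and 54.4 CPM in KO CTR against 110.2, 149.5 and 126 in KO noCys, and *Sars*, for serine, at 78.4, 89.3, 73.9 and 72.9 against 146, 244 and 207. The log2 fold changes were 1.35 (SE 0.12, adjusted p = 5.53e-07) and 1.34 (SE 0.12, adjusted p = 5.53e-07). The cysteine enzyme *Cars*, also picked later, rose by 0.97 (adjusted p = 0.00261), and the 1 without a call was *Qars* (0.24). Of 17 mitochondrial synthetases only 6 rose, among them *Pars2* (1.02) and *Ears2* (0.79), with a median of 0.24 (0.15 when KO noCys replicate 3 was left out and 0.38 with library totals alone). Without KO noCys replicate 3, 12 cytosolic and 3 mitochondrial ones were called, and 12 of the other ATF4 targets.

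The bases before the start of genes that rose most clearly are shown because ATF4 binds, with C/EBP partners, to an element written TGATGNAA. Windows of 300 bases around the RefSeq gene starts (250 before and 50 after, GRCm38.p6) were searched for it on both strands. It was in at least 1 window of 4.51% of all genes with a window and in 2.83% of the genes tested, in 5 of 12 matched ISR genes, 8 of 25 other ATF4 targets and 5 of 12 cytosolic synthetases. Among genes called higher as a whole it was in 3.84%, and among those called lower in 3.16%. The stretches of the 4 genes of the ISR list or the largest changes that had the lowest p and held the element follow, 5′ to 3′, with the match in capitals (TTACATCA is its reverse complement), as 250 bases before the start for *Pck2* (chr14:55540016-55540265, plus strand), *Pycr1* (chr11:120643749-120643998, minus strand) and *Asns* (chr6:7693210-7693459, minus strand), and as 30 bases for *Arhgef2* (chr3:88616158-88616187, plus strand), where the match lay after the start and in 1 of its 4 windows.
Pck2: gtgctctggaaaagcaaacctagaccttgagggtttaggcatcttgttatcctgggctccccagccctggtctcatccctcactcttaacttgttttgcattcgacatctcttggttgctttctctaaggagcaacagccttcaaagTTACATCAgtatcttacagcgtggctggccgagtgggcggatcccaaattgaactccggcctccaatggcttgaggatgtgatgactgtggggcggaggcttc
Pycr1: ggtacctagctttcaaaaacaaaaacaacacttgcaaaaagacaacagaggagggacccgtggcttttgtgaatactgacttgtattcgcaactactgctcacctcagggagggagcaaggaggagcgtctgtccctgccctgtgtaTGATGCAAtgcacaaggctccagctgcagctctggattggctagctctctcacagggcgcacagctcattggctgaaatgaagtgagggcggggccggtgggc
Asns: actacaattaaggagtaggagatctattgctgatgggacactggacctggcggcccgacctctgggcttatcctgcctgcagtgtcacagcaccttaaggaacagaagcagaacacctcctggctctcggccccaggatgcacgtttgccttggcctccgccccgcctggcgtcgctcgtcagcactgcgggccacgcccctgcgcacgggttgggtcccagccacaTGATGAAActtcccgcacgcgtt
Arhgef2: atgggatgggcTGATGAAAtcccaggaaat
The match began 103 bases before the start in *Pck2* and in *Pycr1*, 23 before it in *Asns* and 26 after it in *Arhgef2*. A match is a description of these letters and no evidence of binding.

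The OSR genes rose without an exception. All 8 that the study's text names were called higher, with a median of 1.74, and all 8 were called without KO noCys replicate 3. The same limit holds, since these genes too were chosen by the study on data with these libraries in them. *Gstm1*, a glutathione S-transferase (ENSMUSG00000058135, chromosome 3, 108012255 to 108017973), was at 1157, 1049, 993 and 972 CPM in KO CTR against 3871, 3899 and 3144 in KO noCys (log2 fold change 1.80, SE 0.13, adjusted p = 6.05e-08). *Nqo1*, a quinone reductase and the textbook NRF2 target (ENSMUSG00000003849, chromosome 8, 107388225 to 107403206), was at 7.21, 6.53, 4.25 and 6.76 CPM against 23.2, 22.9 and 23.7 (log2 fold change 1.91, SE 0.19, adjusted p = 1.78e-06). In each gene the libraries of a diet stood within a narrow range and the ranges were far apart. *Gstm3*, at 21.1, 25.2, 12.1 and 20.9 CPM in KO CTR against 182, 153 and 95.4 in KO noCys, rose 7.21-fold (log2 fold change 2.85, SE 0.31, adjusted p = 4.06e-06), with replicate 4 the lowest of KO noCys. *Srxn1*, which repairs oxidised peroxiredoxins, was at 34.7, 31.8, 27.2 and 37.6 against 55.3, 95.9 and 65.4 CPM (log2 fold change 1.14, SE 0.15, adjusted p = 3.59e-05). The other 4 were *Gsta1* (2.35), *Gsta2* (1.68), *Gstm4* (1.46) and *Gstm2* (0.85). The *Gstm* and *Gsta* genes have close copies within their families, and counts may be shared between them.

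**Figure D3:**
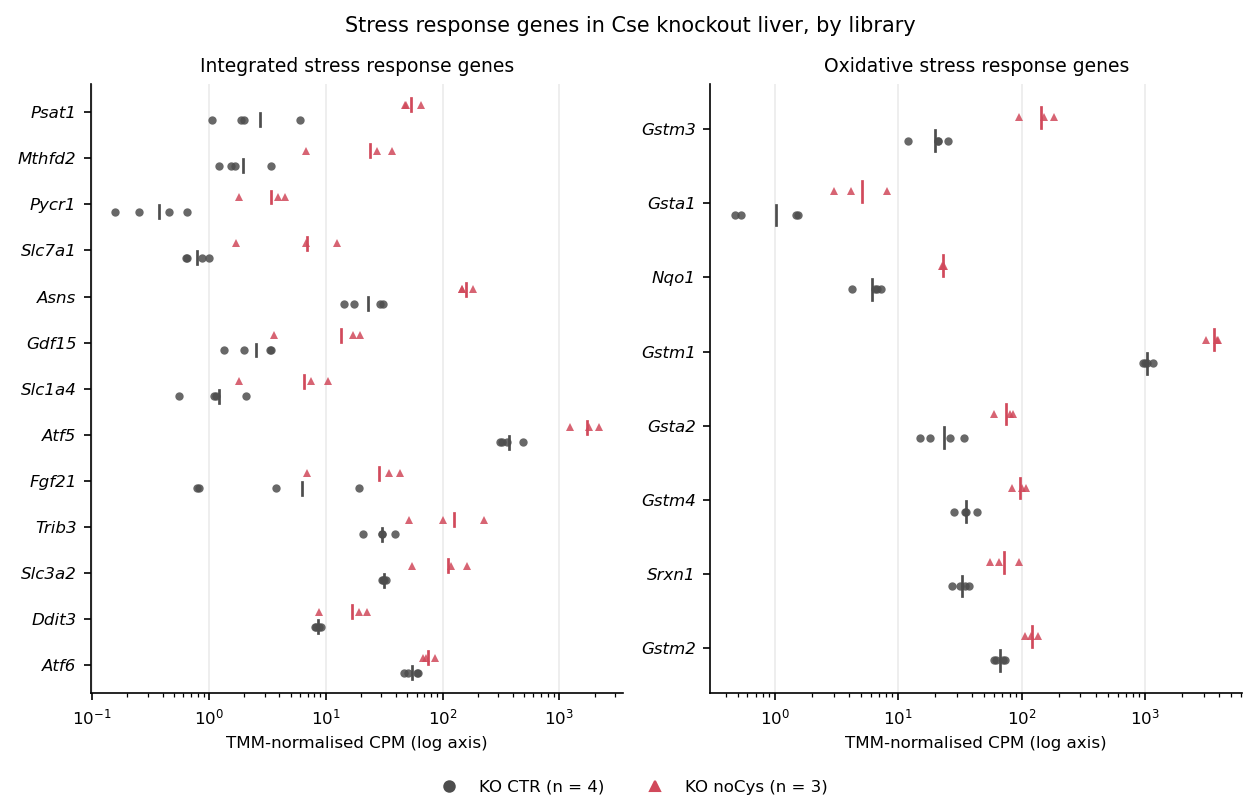
CPM (log axis) of the 13 ISR genes (left) and the 8 OSR genes (right), with 1 circle per KO CTR library, 1 triangle per KO noCys library and a bar at each mean. Triangles lie to the right of all circles for all 8 OSR genes and for all ISR genes but *Slc1a4*, *Fgf21* and *Ddit3*.

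Other NRF2 targets moved less uniformly. Of 33 tested 12 rose and 2 fell (9 and 1 when KO noCys replicate 3 was left out), with a median of 0.27. The exporters *Abcc4* (log2 fold change 2.47, SE 0.26, adjusted p = 3.45e-06) and *Abcc3* (log2 fold change 1.20, SE 0.11, adjusted p = 9.01e-07) led by p, at 8.46, 14.2 and 10.5 CPM in KO noCys against 2.57, 2.50, 1.5 and 1.28 in KO CTR for the first and 501, 471 and 414 against 186, 211, 219.8 and 191 for the second. *Fth1*, the ferritin heavy chain, rose by 0.84 and *Cyp2a5* by 1.11. The 2 that fell belong to the pentose phosphate pathway, *G6pdx*, its first enzyme (4.28, 3.60, 7.72 and 4.93 CPM in KO CTR against 1.58, 1.76 and 1.61 in KO noCys, log2 fold change -1.61, SE 0.33, adjusted p = 0.00200), and *Taldo1* (-0.36, adjusted p = 0.00851). *Taldo1* was not called when KO noCys replicate 3 was left out (adjusted p = 0.0555) or with library totals alone (adjusted p = 0.104). *G6pdx* overlaps exons of *Ikbkg*. *Gclc* (0.11), *Gclm* (-0.10), *Txnrd1* (0.26) and *Hmox1* (0.42), looked up later because they are common NRF2 readouts, were not called. The antioxidant response element, searched as TGACNNNGC on both strands, was in at least 1 window of 16.9% of the tested genes, in 1 of 8 OSR genes, in 10 of 29 other NRF2 targets and in 11 of 25 other ATF4 targets. The match in *Srxn1*, which began 28 bases after its start, is printed as 30 bases (chr2:152105541-152105570, plus strand, match in capitals, on the reverse strand).
Srxn1: ggcagtgggcaGCTAGGTCAgagtgagaca

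Enzymes that make and use cysteine were examined as lists. Of 15 tested genes of the methionine cycle and transsulfuration 1 rose and 2 fell, with a median of 0.01 (0.14 with library totals alone). *Mat1a*, which makes S-adenosylmethionine in hepatocytes, was at 4301, 4455, 4714 and 4940 CPM in KO CTR against 8740, 7637 and 6468 in KO noCys (log2 fold change 0.73, SE 0.21, adjusted p = 0.0185). *Bhmt*, which returns homocysteine to methionine with betaine, was at 3618, 4068, 3864 and 3833 against 2390, 945 and 1409 (log2 fold change -1.28, SE 0.22, adjusted p = 0.000442), and *Gamt*, the methyltransferase of creatine synthesis, at 379.5, 229.9, 287 and 324 against 156, 102 and 189.6 (log2 fold change -1.03, SE 0.19, adjusted p = 0.000837). All 3 genes were separated by diet. Of 14 genes of cysteine breakdown, taurine and sulfide 2 fell, the sulfide dioxygenase *Ethe1* (-0.87, adjusted p = 0.000883) and *Mpst* (-0.41, adjusted p = 0.00685), and *Cdo1*, which commits cysteine to breakdown and was looked up later, was at -0.37 (adjusted p = 0.0571). With library totals alone 4 genes of this list rose and 1 fell, and *Mpst* was not called (adjusted p = 0.0774). It also missed the threshold when KO noCys replicate 3 was left out (adjusted p = 0.0566). *Mat1a* missed it when KO noCys replicate 1 (adjusted p = 0.0695) or 3 (adjusted p = 0.0619) was left out. With library totals and without KO noCys replicate 3 the methionine list had 3 and 0 rises, and 2 falls in each.

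Of 15 genes of glutathione synthesis and breakdown 3 rose and 2 fell, against 2 and 1 without KO noCys replicate 3 and 6 and 1 with library totals alone. *Slc25a39*, which carries glutathione into mitochondria, was at 732, 599, 679 and 696 CPM in KO CTR against 966, 1068 and 1018 in KO noCys (log2 fold change 0.59, SE 0.10, adjusted p = 0.000539), and *Ggct*, which degrades γ-glutamyl peptides, rose by 0.69 (adjusted p = 0.00235). *Gpx1*, the cytosolic glutathione peroxidase, fell, from 1936, 2174, 1768 and 1949 CPM to 1281, 1047 and 1159 (log2 fold change -0.75, SE 0.14, adjusted p = 0.000788). The other 2 calls were *Chac1*, a glutathione-degrading ATF4 target (1.47, groups overlapping), and *Chac2* (-0.42). In coenzyme A synthesis, which takes cysteine as a substrate, 2 of 14 genes rose and 3 fell, against 1 and 1 without KO noCys replicate 3 and 4 and 1 with library totals alone. The steps that join cysteine and remove its carboxyl group, *Ppcs* (0.42, adjusted p = 0.0293) and *Ppcdc* (0.57, adjusted p = 0.00639), were higher, while the pantothenate kinases *Pank3* (82.4, 74.2, 87.7 and 68.4 CPM in KO CTR against 53.1, 32.6 and 39.7 in KO noCys, log2 fold change -0.91, SE 0.14, adjusted p = 0.000196) and *Pank1* (-0.43, adjusted p = 0.0147) were lower. The groups overlapped for *Ppcs* and *Pank1*. *Chac2*, *Ppcs* and *Pank1* lost their calls when KO noCys replicate 3 was left out (adjusted p = 0.201, 0.126 and 0.0711), and *Chac2* and *Pank1* also with library totals alone (adjusted p = 0.154 and 0.0862).

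Chaperones rose in both the ER and the cytosol. Of 27 ER chaperones and unfolded protein response genes 13 rose and none fell, with a median of 0.46. *Hspa5*, the chief ER chaperone (BiP), was at 460.5, 632, 712 and 723 CPM in KO CTR against 1279, 1179 and 1527 in KO noCys (log2 fold change 1.07, SE 0.21, adjusted p = 0.00112). *Derl1*, of the channel that returns misfolded proteins to the cytosol, was at 119, 127, 129 and 129.5 against 189.6, 256 and 206 (log2 fold change 0.79, SE 0.10, adjusted p = 2.41e-05), and its relative *Derl3* at 0.571, 1.03, 2.76 and 2.65 against 10.7, 9.91 and 29.5 (log2 fold change 3.34, SE 0.69, adjusted p = 0.00203). Of 12 cytosolic heat shock proteins 7 rose. *Hspa8*, the constitutive Hsc70, was at 529.7, 629.9, 624 and 476 against 1132, 1493 and 1789 CPM (log2 fold change 1.38, SE 0.17, adjusted p = 1.31e-05), and *Hsph1* rose by 1.32 (adjusted p = 0.000724). None of the libraries overlapped between the diets for these 5 genes.

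Sterol synthesis had the lowest median of the lists examined. Of its 20 genes 18 were called lower and none higher, with a median of -1.67, and the count was also 18 without KO noCys replicate 3 and with library totals alone. *Nsdhl*, which removes a methyl group in late sterol synthesis (ENSMUSG00000031349, chromosome X, 72918557 to 72958514), was at 63.3, 69.5, 40.6 and 40.1 CPM in KO CTR against 6.65, 5.58 and 6.04 in KO noCys (log2 fold change -3.15, SE 0.24, adjusted p = 7.79e-08). *Msmo1*, of the same demethylation, was at 242, 228, 153 and 158 against 33.7, 20.6 and 25.6 (log2 fold change -2.89, SE 0.30, adjusted p = 3.45e-06), and *Tm7sf2*, a sterol reductase that overlaps exons of *Vps51*, at 138, 131, 88.7 and 89.7 against 36.9, 31.9 and 39.6 (log2 fold change -1.63, SE 0.15, adjusted p = 9.01e-07). In all 3 the KO CTR libraries 1 and 2 were higher than 3 and 4, and KO noCys was below both pairs. *Lss*, the lanosterol synthase, was not called (-0.53, adjusted p = 0.0558).

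Control of sterol supply moved with it. Of 14 genes of sterol uptake and SREBP2 control 7 fell and 1 rose. *Srebf2*, the gene for SREBP2, was at 54.3, 51.7, 41.5 and 46.0 CPM in KO CTR against 27.1, 23.4 and 23.1 in KO noCys (log2 fold change -0.98, SE 0.12, adjusted p = 9.49e-06), and *Stard4*, a cholesterol carrier, at 157, 144, 116 and 106 against 27.1, 23.8 and 31.3 (log2 fold change -2.26, SE 0.18, adjusted p = 1.89e-07). The cholesterol exporter *Abca1* was the member called higher (0.46, adjusted p = 0.0161), and missed the threshold when KO noCys replicate 3 (adjusted p = 0.0759) or KO CTR replicate 1 (adjusted p = 0.0538) was left out. In fatty acid synthesis 5 of 18 genes fell and none rose, with a median of -0.37 (-0.22 with library totals alone, where 1 gene rose). They included *Scd1*, the desaturase that makes oleate, at 5362, 1686, 4198 and 3741 CPM in KO CTR against 836, 258 and 264 in KO noCys (log2 fold change -3.05, SE 0.57, adjusted p = 0.000866), *Acss2*, which activates acetate (-1.16, adjusted p = 5.76e-05), and the citrate carrier *Slc25a1* (-0.62, adjusted p = 9.34e-05). *Fasn* (-0.44) and *Srebf1* (-0.63), looked up later, were not called (adjusted p = 0.313 and 0.223).

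Of 16 bile acid genes 5 fell and 1 rose, and 2 fell and none rose with KO noCys replicate 3 left out. *Cyp8b1*, which sets the share of cholic acid, was at 552, 439, 755 and 526 CPM in KO CTR against 227, 52.3 and 144 in KO noCys (log2 fold change -2.01, SE 0.37, adjusted p = 0.000736), and *Slc27a5*, which activates bile acids for conjugation, at 735, 827, 802 and 826 against 549, 352 and 459 (log2 fold change -0.81, SE 0.13, adjusted p = 0.000257). Both were separated by diet. The bile acid list had a median of -0.34. Medians of the fuel pathway lists were -0.08 for fatty acid oxidation, 0.06 for glucose metabolism and 0.06 for the urea cycle. Differences between these lists were not tested. In fatty acid oxidation and ketogenesis 1 of 26 genes rose and 4 fell, in glucose metabolism 1 of 22 rose and 1 fell, and in the urea cycle and amino acid breakdown 1 of 23 rose and 2 fell. None of the 3 lists held a rise when KO noCys replicate 3 was left out, and with library totals alone 3, 4 and 4 of their genes rose. Genes of these lists that fell included *Pfkfb3*, a regulator of glycolysis (-1.63, adjusted p = 0.000111), and *Otc*, of the urea cycle, at 341, 339, 395 and 362 CPM in KO CTR against 223, 118 and 167 in KO noCys (log2 fold change -1.09, SE 0.15, adjusted p = 6.13e-05).

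A second set with large falls was that of genes known to depend on pulsatile growth hormone and to be higher in male liver. Of 18 such genes 10 fell and 1 rose, with a median of -1.22. *Selenbp2* (ENSMUSG00000068877, chromosome 3, 94693556 to 94704413) was at 227, 98.0, 334 and 374 CPM in KO CTR against 6.99, 2.91 and 13.2 in KO noCys (log2 fold change -5.08, SE 0.98, adjusted p = 0.00117). *Serpina12*, the adipokine vaspin, was at 64.6, 22, 19.3 and 123 against 2.37, 1.29 and 1.28 (log2 fold change -5.20, SE 1.01, adjusted p = 0.00126). KO CTR libraries differed severalfold in both genes, and all lay above KO noCys. *Mup3*, a major urinary protein, fell by 1.24 on the log2 scale (adjusted p = 0.000203), and the complement gene *C6*, which is on this list too, fell by 1.51 (adjusted p = 0.000402). The 1 that rose was *Gstp1* (1.04, adjusted p = 0.000551), which is also on the NRF2 list. *Selenbp2*, the *Serpina* and the *Mup* genes have close copies, and counts may be shared with them. Of the 10 female-biased genes tested, 2 rose and none fell, a share near that of all genes, and neither was called when KO noCys replicate 3 was left out. The list's median was -0.31, and 0.20 when that library was left out. They were *Cyp2a4* (1.05, groups overlapping) and *Cux2*, a repressor found in female liver, at 8.42, 2.85, 1.18 and 0.274 CPM in KO CTR against 79.5, 33.3 and 20.4 in KO noCys (log2 fold change 3.75, SE 1.15, adjusted p = 0.0253). *Cux2* was called in only 2 of the 7 fits that left out 1 of these libraries, with adjusted p of 0.0531 without KO noCys replicate 3 and 0.0854 without replicate 1.

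In the growth hormone and IGF1 axis 7 of 15 genes fell and none rose. *Ghr*, the growth hormone receptor (ENSMUSG00000055737, chromosome 15, 3317760 to 3583492), was at 396, 417, 421 and 388 CPM in KO CTR against 209.8, 154 and 195 in KO noCys (log2 fold change -1.12, SE 0.13, adjusted p = 7.77e-06), with the groups far apart. *Igfals*, which holds IGF1 in the circulation, fell by 0.62 (adjusted p = 0.00582), and *Igf1*, looked up later, was not called (-0.33, adjusted p = 0.125). Without KO noCys replicate 3 only 1 of the 7 falls was called, that of *Ghr*, and with library totals alone the list had 4 falls.

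Many genes for secreted plasma proteins were lower. In the acute-phase list 7 of 20 fell and 2 rose. *Apcs*, serum amyloid P, rose from 89.2, 142, 93.4 and 210.3 CPM to 580.3, 636 and 474 (log2 fold change 2.08, SE 0.38, adjusted p = 0.000690), and *Hamp*, hepcidin, was at 897, 107, 290 and 347 against 1226, 1707 and 1720 (log2 fold change 1.92, SE 0.55, adjusted p = 0.0172). *Orm1*, orosomucoid, fell from 830.1, 696, 718 and 1151 to 373, 248 and 257 (log2 fold change -1.54, SE 0.27, adjusted p = 0.000565). *Saa1* (142, 78.0, 87.1 and 718 CPM in KO CTR against 45.1, 11.2 and 27.2 in KO noCys) and *Saa2* (49.4, 23.9, 44.1 and 358 against 4.17, 4.67 and 9.06) were high in KO CTR replicate 4. Without that library *Saa1* was at -1.90 (adjusted p = 0.21) in place of -3.22 and *Saa2* at -2.70 (adjusted p = 0.109) in place of -4.29. Without KO noCys replicate 3, 2 of the 9 acute-phase calls were made. Of 32 complement and coagulation factors 13 fell and 1 rose, against 8 and none without KO noCys replicate 3 and 7 and 2 with library totals alone. *C9*, the last component of the membrane attack complex, was at 257, 239, 380.1 and 442 CPM in KO CTR against 64.3, 35.5 and 76.6 in KO noCys (log2 fold change -2.49, SE 0.27, adjusted p = 3.52e-06), and *C8g* at 652, 552, 555 and 539 against 304, 287 and 292 (log2 fold change -0.97, SE 0.12, adjusted p = 2e-05). *F12* was called higher (0.38, adjusted p = 0.0212). *Hamp* and *F12* missed the threshold when KO noCys replicate 3 was left out (adjusted p = 0.0614 and 0.0855).

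Of 16 genes of lipoproteins and their assembly 7 fell and none rose, among them *Apoc1*, at 6605, 4063, 5349 and 4865 CPM in KO CTR against 2673, 2123 and 2798 in KO noCys (log2 fold change -1.04, SE 0.17, adjusted p = 0.000205), and *Apoa2* (-0.91, adjusted p = 0.000707). The 3 of them with at most 1000 bases of exon all fell, with a median of -0.91, and of the 13 longer ones 4 fell, with a median of -0.10. *Apoe* and *Cyp2e1*, of the genes with the most counts, differed by -0.10 and -0.04 (adjusted p = 0.546 and 0.892), and the sign of both turned with library totals alone. Of 10 hepatocyte markers 5 fell and none rose, and 3 fell when KO noCys replicate 3 was left out. *Ttr*, transthyretin, was at 7749, 7026, 7391 and 6718 CPM against 4197, 3148 and 4080 (log2 fold change -0.92, SE 0.12, adjusted p = 2.62e-05), and *Trf*, transferrin, at 1343, 707, 1005 and 1105 against 357, 316 and 471 (log2 fold change -1.45, SE 0.26, adjusted p = 0.000589). *Alb*, at 45690, 50400, 45500 and 50500 against 44750, 21620 and 24480 CPM, was in KO noCys replicate 1 just under the lowest control and far lower in replicates 3 and 4 (log2 fold change -0.67, adjusted p = 0.0457), and it was called in 1 of the 7 fits without 1 library. Against these, *Ahsg*, fetuin A, rose from 6685, 8875, 8426 and 10080 to 14490, 15990 and 14470 (log2 fold change 0.81, SE 0.15, adjusted p = 0.000784), as did *Rbp4* (0.52, adjusted p = 0.000568). Of 25 on the list of secreted proteins and hepatokines 4 rose and 6 fell, against 3 and 3 when KO noCys replicate 3 was left out. Sums over a list are CPM of the library total without TMM scaling, unlike the levels of single genes. The hepatocyte markers, with *Alb* among them, summed to 78180 to 85380 in KO CTR against 50020 to 71390 in KO noCys. The part of these markers in the falls was not tested. In bulk tissue fewer cells of a type and less RNA per cell cannot be told apart.

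Transcripts for the machinery of translation and respiration moved in opposite directions. Of 74 cytosolic ribosomal protein genes 38 rose and none fell, with a median of 0.38. *Rpl10a* was at 220.2, 187, 202 and 212 CPM in KO CTR against 323, 366 and 347 in KO noCys (log2 fold change 0.75, SE 0.10, adjusted p = 2.59e-05), and *Rpl4* at 715, 651, 726 and 722 against 1078, 1112 and 1072 (log2 fold change 0.63, SE 0.08, adjusted p = 4.09e-05). Of 36 subunits of respiratory complex I 27 fell and none rose, with a median of -0.42, and of 37 subunits of complexes II to V 24 fell and none rose, with a median of -0.46. *Ndufa3* was at 325, 215, 244 and 214 against 121, 108 and 130.4 CPM (log2 fold change -1.06, SE 0.16, adjusted p = 0.000124). *Atp5k*, of the ATP synthase, was at 341, 234, 257 and 244 against 124, 86.3 and 129.9 (log2 fold change -1.25, SE 0.17, adjusted p = 5.03e-05). None of these libraries overlapped between the diets. Of 11 mRNAs encoded in mitochondria 4 fell, among them *mt-Co2* (-1.05, adjusted p = 0.00595), and no call was higher. With library totals alone 48 ribosomal genes were called higher and 16 and 19 respiratory genes lower. Without KO noCys replicate 3 these counts were 23, 10 and 17. Many ribosomal genes have processed pseudogenes that can take their reads.

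Transcript length moved with these changes. Of the 252 tested protein-coding genes with at most 1000 bases of exon 29.8% fell and 6.75% rose, with a median of -0.29, whereas of the 8821 with over 3000 bases 8.30% fell and 11% rose, with a median of 0.03. In the single libraries the short genes stood at -0.31, -0.37 and -0.24 from the KO CTR mean in KO noCys, and at 0.19, -0.18, -0.02 and 0.03 in KO CTR. The respiratory lists fell in both length classes, with medians of -0.46 for the 9 complex I genes of at most 1000 bases and -0.42 for the 27 longer ones, and of -0.68 (8 genes) and -0.41 (29 genes) for complexes II to V. The ribosomal rise was at 0.40 over 65 longer genes and at 0.09 over 9 short ones. The part of length in these results was not tested beyond this.

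Cytochrome P450 genes of families 1 to 3 went both ways, 5 of 31 up and 8 down. *Cyp1a2*, a pericentral gene, was at 468, 543, 743 and 738 CPM in KO CTR against 1429, 1296 and 1483 in KO noCys (log2 fold change 1.17, SE 0.23, adjusted p = 0.00149), and *Cyp2f2*, a periportal one, at 979, 729, 946 and 830 against 451, 362 and 411 (log2 fold change -1.09, SE 0.15, adjusted p = 5.51e-05). Zonation markers as lists were mixed, with 2 of 15 pericentral genes higher and 2 lower and 2 of 15 periportal genes higher and 4 lower. *Cyp2a5* (1.11), *Cyp3a59* (2.06) and *Cyp2c23* (-1.16) were called, and the P450 families hold close copies. Among iron genes and metallothioneins 6 of 17 rose and 3 fell. *Id1*, a target of BMP signalling, was at 4.07, 4.0, 3.94 and 3.20 CPM against 18.9, 34.9 and 22.7 (log2 fold change 2.75, SE 0.32, adjusted p = 1.01e-05), while *Hamp2*, a copy of hepcidin, was at -1.91 (adjusted p = 0.0134), opposite to *Hamp* (adjusted p = 0.0921 when KO noCys replicate 3 was left out). The lysosomal protease *Ctsl* rose from 681, 661, 750.3 and 892 CPM to 1661, 1845 and 1614 (log2 fold change 1.19, SE 0.21, adjusted p = 0.000457), in a list of autophagy and lysosome genes of which 3 of 22 rose and 4 fell. Calls in other lists, to be read against 20.2% of all genes, were those of cell cycle genes (2 of 15, both higher), p53 targets (2 of 13 higher, *Cdkn1a* and *Gdf15*), clock genes (1 of 17, lower), immediate early genes (1 of 18, higher), proteasome subunits (5 of 31, all higher, 0 without KO noCys replicate 3 and 10 with library totals alone) and liver transcription factors (1 of 27 higher, 4 lower). With KO noCys replicate 3 left out, 1 cell cycle gene, 1 p53 target and no clock gene, immediate early gene or liver transcription factor were called, and the P450 list had 3 higher and 6 lower, the iron genes 4 and 1, the autophagy and lysosome genes 3 and 2, the pericentral genes 1 and 1 and the periportal genes 1 and 2.

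The largest rises and falls among called and separated genes with a mean over 2 log2 CPM are drawn by library. Besides genes already given, the rises held *Arhgef2*, a guanine nucleotide exchange factor (3.57, 2.39, 2.60 and 3.56 CPM in KO CTR against 7.89, 40.3 and 25.6 in KO noCys, log2 fold change 3.06, SE 0.36, adjusted p = 1.01e-05), *Extl1*, a heparan sulfate enzyme (2.46), and *Cdkn1a*, the cell cycle inhibitor p21 (2.57, 3.28, 2.28 and 7.22 against 28.2, 37.9 and 8.23 CPM, log2 fold change 2.73). *Cdkn1a* was lowest in KO noCys replicate 4 and highest among the controls in replicate 4, and it was called in 2 of the 7 fits without 1 library (adjusted p = 0.168 without KO noCys replicate 3). The falls held *Aqp8*, a channel for water and peroxide (112, 49.9, 47.6 and 50.8 against 5.19, 4.38 and 9.71 CPM, log2 fold change -3.33, SE 0.42, adjusted p = 2e-05), the collagen gene *Col27a1* (-2.83), *Cnmd* (-2.83) and *Orm2* (-2.86), which was not called when KO noCys replicate 3 or 4 was left out (adjusted p = 0.107 and 0.0803).

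**Figure D4:**
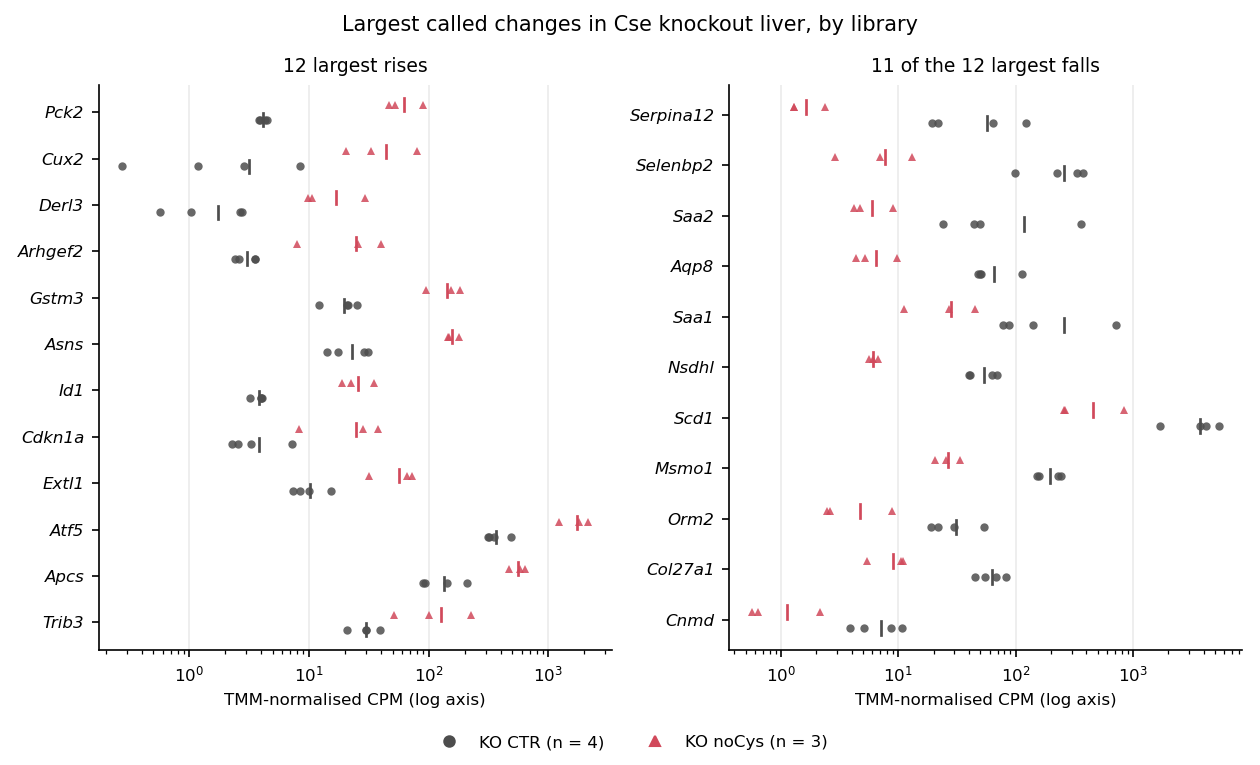
CPM (log axis) of the 12 largest rises (left) and 11 of the 12 largest falls (right) among called, separated genes, with 1 circle per KO CTR library, 1 triangle per KO noCys library and a bar at each mean. No triangle overlaps the circles of its gene, which the choice of separated genes fixed in advance. The controls spread widely for *Cux2*, *Saa1*, *Saa2* and *Serpina12*.

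Expression was nearly absent on one diet for 3 genes (at most 3 counts over the group, and at least 10 in each library of the other). *Vmn2r3*, a vomeronasal receptor gene with close copies, had 0 counts in the 4 KO CTR libraries and 56, 646 and 167 in KO noCys, at least 460-fold higher when 3 counts over the control group are taken as the floor. *Cox6a2*, the muscle form of a cytochrome oxidase subunit, had 2 counts over KO CTR and 285 over KO noCys (43, 153 and 89), a ratio of 226 (95% exact interval 62.1 to 1880, counting error only). *Klk1b4*, a kallikrein-like gene with many copies, had 16, 32, 15 and 21 counts in KO CTR and 0, 0 and 1 in KO noCys, a ratio of 52.9 in the other direction (95% exact interval 9.23 to 2110). KO noTrp libraries held 1 to 23 counts of *Vmn2r3*, 5 to 17 of *Cox6a2* and 2 to 6 of *Klk1b4*.

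Markers of other cell types were examined in the same libraries, and their sums are again CPM of the library total without TMM scaling. No gene of 10 tested Kupffer cell and leukocyte markers was called, 1 of 10 endothelial markers fell, *Stab2* (-0.57), as did 3 of 9 stellate cell and fibroblast markers, 1 of 6 cholangiocyte markers, *Spp1* (-1.29), and 3 of 5 erythroid markers. Leaving out KO noCys replicate 3 left no call among the endothelial, stellate or cholangiocyte markers and 1 erythroid call. The Kupffer cell and leukocyte markers summed to 87.5 to 195 CPM in KO CTR against 105 to 140.2 in KO noCys, the endothelial ones to 150.5 to 242 against 174.5 to 195, and the cholangiocyte ones to 31.3 to 70.7 against 25.8 to 34.8. The summed level of the stellate and fibroblast list was 213 to 440.0 CPM in KO CTR against 241 to 264 in KO noCys, and the erythroid sum was 174 to 348 and 138 to 176. *Col3a1* (16.3, 11.2, 17.3 and 42.9 CPM against 5.41, 5.0 and 11.6) was high in KO CTR replicate 4. Of 12 markers of muscle, adipocytes and pancreas 6 were at 0 in all 7 libraries, and the list summed to at most 2.15 CPM. Mitochondrial genes took 4.49% to 7.29% of the counts in KO CTR and 3.77% to 5.51% in KO noCys. The part of these in the results was not tested.

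Tryptophan removal in the same genotype was set beside it to ask whether the changes follow the loss of any amino acid. KO noCys and KO noTrp differed directly in 2000 genes (13.9%), 1030 higher (7.17%) and 970 lower (6.75%) in KO noCys. Leaving out KO noCys replicate 3 gave 570, and without replicate 4 it was 1197. The direct test was passed by 12 of the 13 ISR genes, 16 of 29 other ATF4 targets, 16 of 20 cytosolic synthetases, all 8 OSR genes, 35 ribosomal genes (all higher in KO noCys) and 11 of 20 sterol synthesis genes (all lower). For *Pck2* the direct difference was 2.73 (SE 0.20, adjusted p = 4.03e-08) and for *Gstm1* 1.97 (SE 0.12, adjusted p = 6.68e-09). The thyroid hormone deiodinase *Dio1*, at 61.3, 71.2, 97.5 and 68.3 CPM in KO CTR against 15.6, 3.96 and 14.1 in KO noCys, was lower than in KO noTrp by 2.92 on the log2 scale (adjusted p = 0.000218). Of 27 ER chaperone and unfolded protein response genes 2 passed the direct test, and of 12 cytosolic heat shock proteins 6 were higher in KO noCys, among them *Hspa8* (0.67, adjusted p = 0.00821) and *Hsph1* (0.70, adjusted p = 0.0437). In the direct test *Hspa5* differed by 0.26 (adjusted p = 0.414), *Derl3* by 0.16 (adjusted p = 0.886) and *Scd1* by -0.05 (SE 0.48, adjusted p = 0.962). Against KO CTR, which both comparisons share, *Scd1* was at -3.05 without cysteine and -3.0 without tryptophan, and *Derl3* at 3.34 and 3.17. The sterol synthesis list had medians of -1.67 and -1.06, with 18 and 17 of 20 genes called lower, in a comparison of KO noTrp with KO CTR that called 1.87% of all genes, 0.779% higher and 1.09% lower (269 genes, or 105 when KO CTR replicate 1 was left out, 447 for replicate 2, 140 for replicate 3 and 141 for KO noTrp replicate 3). The ISR list had medians of 2.38 and 0.27.

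**Figure D5:**
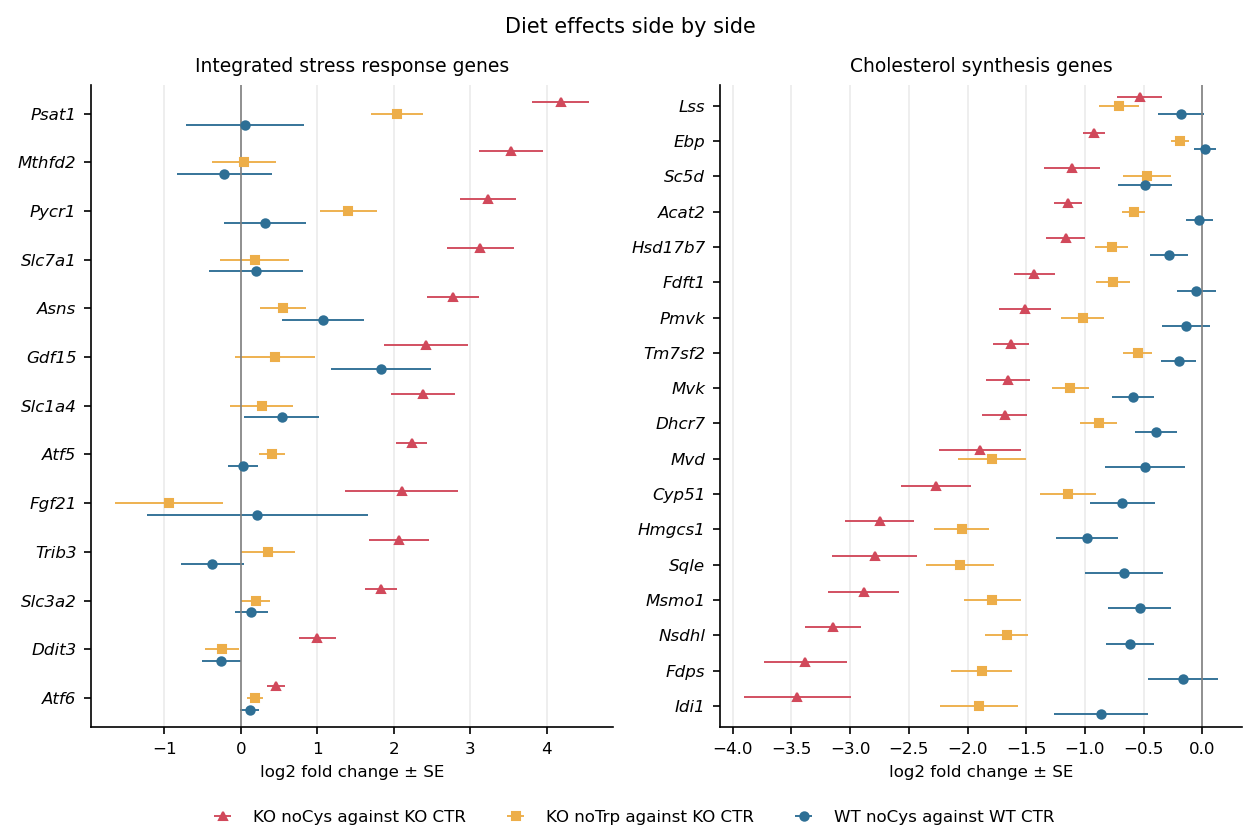
Log2 fold change ± SE of the 13 ISR genes (left) and 18 of the 20 sterol synthesis genes (right) for cysteine removal in KO (red triangles), tryptophan removal in KO (yellow squares, same controls) and cysteine removal in WT (blue circles). Red stands to the right of blue for all ISR genes, and for the sterol genes shown red lies farthest to the left in all but *Lss*.

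Whether removal of cysteine acted in the same way where the enzyme was present was asked with the difference between the diet effects of the 2 genotypes. The effect differed in 1069 genes (7.44%), more upward in KO in 512 (3.56%) and more downward in 557 (3.88%). In WT itself 95 genes were called (0.661%), 0.39% of all genes higher and 0.271% lower. The count moved with the method, and was 75 with library totals alone, 269 with no filter, 305 by DESeq2, 396 with the compared groups alone and 533 with limma-voom. In the edgeR fit 11 of 56 rises and 14 of 39 falls were among the 1528 rises and 1378 falls in KO, while 2 genes that rose and 6 that fell in KO were called the opposite way in WT. Without WT CTR replicate 3, in which small and ribosomal RNA took 8.0% of the counts, 1 gene was called in WT. The difference was called for 8 of 13 ISR genes, 11 of 20 cytosolic synthetases, 7 of 8 OSR genes, 10 ribosomal genes (all upward), 16 of 20 sterol synthesis genes, 11 complex I genes and 13 genes of complexes II to V (all downward). *Gstm1* changed by -0.33 in WT and 1.80 in KO, a difference of 2.13 (SE 0.18, adjusted p = 2.62e-06), and *Nsdhl* by -0.62 and -3.15, a difference of -2.53 (SE 0.31, adjusted p = 8.41e-05). *Asns* was not called for it, at 1.08 in WT and 2.78 in KO (difference 1.70, SE 0.66, adjusted p = 0.125), nor was *Gdf15*, at 1.83 and 2.42 (adjusted p = 0.736). *Cux2* was at 3.40 in WT and 3.75 in KO, a difference of 0.35 (SE 2.0, adjusted p = 0.942). Acute-phase genes went apart, with 4 of 20 called higher in WT noCys than in WT CTR and 8 with a downward difference. The WT noCys libraries spread widely in some of them, at 1642 ± 2129 CPM for *Saa1*, 1176 ± 1855 for *Saa2* and 134 ± 160.0 for *Orm2* (mean ± SD, n = 4), and with any 1 WT noCys library left out 12 to 19 genes of all were called in WT. *Orm1* was at 1.29 in WT and -1.54 in KO, a difference of -2.83 (SE 0.38, adjusted p = 0.000233). The count of 1069 became 430 without KO noCys replicate 3, 701 without replicate 4, and 640 or 697 without WT CTR replicate 1 or 2.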

How the data were processed

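RNA was extracted with TRIzol from liver for 21 libraries, enriched for poly(A) RNA and sequenced in pairs. Per the labels and the study's methods the authors aligned reads to GRCm38 with HISAT2 2.1.0 and deposited raw counts per gene from HTSeq 0.11.0. The annotation release and the strand setting are not given in the sources used here, the kit does not mark strand, and 1 column that matched no sample was not used. Groups came from the titles. Of 46078 identifiers, 45229 were named from GENCODE M21. Genes were kept by filterByExpr (minimum count 10, total 15), scaled by TMM and tested with edgeR 4.0.16 (R 4.3.3) by a quasi-likelihood test in 1 model of the 6 groups, with Benjamini-Hochberg adjustment over 14370 genes. The code was tested on simulated data. Intervals cover counting error only.

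Members and gene lists were chosen with earlier results of these data known. Named were *Cth*, the 12 largest separated changes in each direction with a mean over 2 log2 CPM, up to 2 called members per list and direction by p, all ISR and OSR genes, genes nearly absent on one diet, the 10 most abundant genes, and 5 per direction by difference from WT or KO noTrp. *Atf4*, *Cars*, *Qars*, *Gclc*, *Gclm*, *Txnrd1*, *Hmox1*, *Cdo1*, *Chac1*, *Lss*, *Fasn*, *Srebf1* and *Igf1* were picked with their values in view. A few genes that the rule names are not reported here. As alternatives served DESeq2 1.42.0, limma 3.58.1 (voom with quality weights), RLE size factors, library totals, no filter, the compared groups alone, a replicate block and leaving out each library.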

Additional observations from a re-analysis of the deposited data

Results flagged for a closer look

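In KO CTR, 1 of the 4 libraries stood far from the other 3 by Dixon's ratio for 7 of 59 values examined, a rate to be read against about 1 in 20 groups that chance marks. *Saa1* was at 718 CPM in replicate 4 against a median of 87.1 in the other 3, and *Saa2* at 358 against 44.1. *Id1* was at 3.20 against 4.0 and *Klk1b4* at 1.92 against 1.14 in the same replicate. *Aqp8* was at 112 CPM in replicate 1 against 49.9, and *Fgf21* at 19.4 in replicate 2 against 0.823. Small and ribosomal RNA took 0.384% of the counts in replicate 1 against 0.193%.

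The effect of cysteine removal differed between KO and WT, by the interaction term of the edgeR model, in 1069 genes. Among the 43 genes of the largest changes, the 2 stress lists and the largest differences, the upward differences (log2, KO minus WT) were *Psat1* 4.12, *Mthfd2* 3.75, *Pck2* 3.26, *Gadd45a* 3.0, *Slc7a1* 2.94, *Gstm3* 2.91, *Pycr1* 2.91, *Lad1* 2.70, *Arhgef2* 2.65, *Trib3* 2.44, *Atf5* 2.21, *Gstm1* 2.13, *Id1* 2.02, *Gsta2* 2.02, *Extl1* 1.93, *Gstm4* 1.93, *Slc3a2* 1.70, *Nqo1* 1.62, *Gstm2* 1.51, *Srxn1* 1.38 and *Ddit3* 1.25. The downward differences included *Saa2* -9.94, *Saa1* -7.94, *Orm2* -7.04, *Selenbp2* -4.24, *Scd1* -3.28, *Cnmd* -2.78, *Nsdhl* -2.53, *Col27a1* -2.53, *Msmo1* -2.35 and *Aqp8* -2.17. Those of *Saa1*, *Saa2* and *Orm2* rest on WT noCys libraries that spread widely, at 1642 ± 2129, 1176 ± 1855 and 134 ± 160.0 CPM (mean ± SD, n = 4).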

How the results depend on the processing

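Of the 158 named genes 150 were called, 107 of them in all 7 fits without 1 library and 122 under all 7 other alternatives. Without KO noCys replicate 3, 42 named genes lost their call, among those given above *Cux2*, *Cdkn1a*, *Saa2*, *Saa1*, *Orm2*, *Ddit3*, *Atf6*, *Taldo1*, *Mat1a*, *Mpst*, *Chac2*, *Ppcs*, *Pank1*, *Abca1*, *Cyp2a4*, *Igfals*, *Hamp*, *F12*, *Hamp2*, *Stab2*, *Col3a1*, *Spp1* and *Alb*. The sign turned for *Apoe* (0.02 with library totals) and for *Cyp2e1* (0.08 with library totals, 0.00 with the replicate block, and -0.16 to 0.06 without 1 library, above 0 without KO CTR replicate 2 or 3 or KO noCys replicate 3, at 0.06, 0.01 and 0.02). Genes called in KO noCys against KO CTR ranged from 1379 to 2979 without 1 library, 721 to 1539 of them higher and 658 to 1440 lower. The rises numbered 2380 with library totals and 2316 with limma-voom, and the falls 848 with library totals. The calls against KO noTrp were 3204 with limma-voom and 1302 with the replicate block, and 570 to 2124 without 1 library. The KO and WT effects differed in 2179 genes with limma-voom and in 430 to 1399 without 1 library. KO noTrp against KO CTR gave 606 calls with DESeq2, 610 with limma-voom, 136 with the compared groups alone and 105 to 447 without 1 library. WT noCys against WT CTR gave 305 with DESeq2, 533 with limma-voom, 396 with the compared groups alone, 269 with no filter, 14 with the replicate block and 1 to 53 without 1 library. The cause of these shifts was not tested. Same-numbered KO noCys and KO CTR libraries did not deviate together (correlations of -0.09, -0.05 and -0.08), and each correlated best with another number, so the numbers were not taken as pairs. With the replicate block 1210 genes rose and 1163 fell, and *Fgf21* passed the threshold (3.31, adjusted p = 0.0145). The muscle, adipocyte and pancreas list had no gene left to test with the compared groups alone.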
